A study of Mus musculus with 12 samples.

Results

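The 9 genes Insr, Igf1r, Irs1, Irs2, Pik3r1, Akt1, Foxo1, Foxo3 and Foxo4 encode the insulin and IGF1 receptors, the adaptors and kinases that relay their signal, and the FoxO transcription factors at its end. They were taken by Ensembl identifier from 2 tables of read counts, 9 of 32285 genes in the table of hematopoietic stem cells (HSCs) and 9 of 56980 in that of macrophages, and all 9 passed the filter on low counts in both. The genes were chosen with their Cre positive and Cre negative values in view, because Insr stood apart in HSCs and Foxo1 in macrophages. Their genotype differences are therefore given as a description, with no test.

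The cells came from fetal livers of mouse embryos at E14.5, all homozygous for a floxed allele of Jag1 (Jag1 f/f), which encodes a Notch ligand. The compared embryos lacked (VavCre-, Cre negative) or carried (VavCre+, Cre positive) a Cre transgene driven by the Vav promoter, which is active in blood cells and also in part of the endothelium. HSCs, of strain C57BL/6, were sorted as live CD45+ Lin- cKit+ Sca1+ CD48- CD150+ cells, and their labels call the 2 genotypes WT and Mutant. The macrophage sort took CD169+ cells. Each of the 4 groups had 3 libraries, from 2000 HSCs or from 1000 to 3000 macrophages per library. The labels do not say whether each library came from its own embryo, so the spread between libraries may be partly technical.

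Insulin, IGF1 and IGF2 bind receptor tyrosine kinases, Insr and Igf1r, which phosphorylate the adaptors Irs1 and Irs2. These recruit phosphoinositide 3-kinase through its regulatory subunit Pik3r1, and the lipid it makes brings the kinase Akt1 to the membrane. Akt1 phosphorylates the FoxO factors, which then leave the nucleus, so that growth factor input holds FoxO activity down. In mice, FoxO factors keep adult HSCs quiescent and limit their oxidative stress, and Insr is among the genes that FoxO factors activate when insulin is scarce.

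The HSC libraries held 51982064 to 77463770 reads, the VavCre- macrophage libraries 17230019 to 24658205 and the VavCre+ ones 2602934 to 5366990, so that depth went with genotype in macrophages. Levels are in CPM, read counts relative to the TMM-scaled library size, and a count of 3 is worth 0.0386 to 0.0561 CPM in HSCs, 0.138 to 0.174 in VavCre- and 0.522 to 1.08 in VavCre+ macrophages. Jag1 itself lay at 1.16 to 6.87 CPM in VavCre- HSC libraries and at 0 to 19.5 CPM in those labelled VavCre+, which therefore overlapped. In macrophages it lay at 21.1 to 52.6 and 0 to 10.6 CPM, without overlap. Counts are over the whole gene, so reads of the floxed part cannot be told apart in either sort. The HSC regulator Hlf was counted in every HSC library (61.9 to 203 CPM) and the CD169 gene Siglec1 in every macrophage library. Siglec1 measured 18.2, 115 and 117 CPM in VavCre- and 16.2, 102 and 67.7 CPM in VavCre+ macrophages, lowest in replicate 1 of both. The 12 HSC markers, Hlf among them, summed to 1101 to 2677 CPM in VavCre- HSC libraries and 1664 to 2240 CPM in those labelled VavCre+. Hepatoblast markers in the same libraries summed to 1949 to 4006 and 2261 to 3158 CPM. Macrophage markers summed there to 1564 to 1862 and 994 to 2108 CPM, and neutrophil markers to 1286 to 1738 and 929 to 3890 CPM. Endothelial transcripts were abundant in both sorts. The 15 endothelial markers summed to 5989 to 12014 CPM in VavCre- and 6119 to 8651 CPM in VavCre+ HSC libraries, and to 9674 to 17477 and 13174 to 17486 CPM in macrophages, with 15 of 15 counted in every library of either sort. The 14 macrophage markers summed to 1973, 5059 and 4809 CPM in VavCre- and 2105, 2424 and 3632 CPM in VavCre+ macrophage libraries. Mrc1 was the largest part in each, at 1286, 1174 and 1353 and then 1406, 1654 and 1281 CPM. Adgre1 measured 22.3, 403 and 375 and then 60.1, 60.2 and 70.8 CPM. C1qb measured 31.9, 741 and 559 and then 70.2, 34.2 and 196 CPM. Mertk varied less, at 227, 285 and 244 and then 130, 194 and 232 CPM. The sums therefore do not show that macrophage content was alike. The 16 hepatoblast markers reached 4386 CPM in VavCre- macrophage replicate 1 against 548 to 892 CPM in the other 5. The 12 stellate and mesenchymal markers were lower in VavCre+ macrophages without overlap, summing to 1797, 316 and 384 CPM in VavCre- and 187, 152 and 123 CPM in VavCre+ libraries. In HSCs they summed to 431, 897 and 753 CPM and then 360, 352 and 583 CPM, with overlap. What part of the 9 genes' reads came from these cells was not tested, and in such bulk samples fewer cells of a type and less RNA per cell cannot be told apart.

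The receptor Insr (chromosome 8, 3122061 to 3279617, minus strand, GRCm38) binds insulin. In HSCs it measured 18.9, 22.1 and 19.9 CPM in VavCre- libraries and 50.03, 62.3 and 87.1 CPM in those labelled VavCre+. The VavCre- libraries lay close together, and each library labelled VavCre+ was above all of them. The means were 20.3 ± 1.64 and 66.5 ± 18.9 CPM (SD, n = 3 each), which is 1.71 on the log2 scale (standard error, SE, 0.36). In macrophages the order was the opposite: Insr measured 57.1, 96.4 and 106 CPM in VavCre- and 55.4, 38.5 and 28.2 CPM in VavCre+ libraries. The groups came within 2 CPM of each other there, at 57.1 and 55.4 CPM, and the log2 fold change was -1.09 (SE 0.57). They overlapped when scaled by library totals, by upper quartiles or by median-of-ratios size factors.

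The gene for the IGF1 receptor, Igf1r (chromosome 7, 67952827 to 68233668, plus strand), measured 29.1, 29.7 and 38.4 CPM in VavCre- HSCs and 53.4, 31.7 and 123.9 CPM in HSC libraries labelled VavCre+. Replicate 3 of the latter was far above its group, and replicate 2 lay among the VavCre- libraries. The log2 fold change of 1.10 (SE 0.51) was 0.39 without that replicate 3. In macrophages Igf1r measured 199.8, 95.7 and 64.3 CPM in VavCre- and 154, 165 and 229.5 CPM in VavCre+ libraries, with VavCre- replicate 1 among the VavCre+ values. The log2 fold change was 0.61 (SE 0.45).

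The adaptors were the scarcest members beside Foxo4. Irs1 (chromosome 1, 82233101 to 82291416, minus strand) had 15, 0 and 35 reads in VavCre- HSC libraries and 0, 0 and 133 reads in those labelled VavCre+, none above 1.81 CPM. In macrophages it measured 7.76, 7.80 and 13.7 CPM in VavCre- and 0.360, 3.16 and 0.696 CPM in VavCre+ libraries. The 2 lowest of these rest on 1 and 4 reads, close to the level of 3 counts in libraries of that depth. Irs2 (chromosome 8, 10984681 to 11008458, minus strand), the main adaptor of insulin signalling in liver, was present or absent by library. It measured 13.9, 7.86 and 5.71 CPM in VavCre- HSCs, and 33.0 CPM in replicate 1 but 0 reads in replicates 2 and 3 of the libraries labelled VavCre+. In macrophages Irs2 measured 13.4, 8.36 and 10.1 CPM in VavCre- libraries and 0, 14.3 and 0 CPM in VavCre+ ones. A level that falls to 0 reads in some libraries was common at this abundance: of genes with a mean of 5 to 15 CPM, 33.0% in HSCs and 73.1% in macrophages had at least 1 library at 0, and 8.97% and 31.9% had 2 or more. The Irs2 groups overlapped in both sorts.

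Pik3r1 (chromosome 13, 101680563 to 101768217, minus strand) encodes p85α, the subunit that stabilises the catalytic subunit of phosphoinositide 3-kinase and docks it on the adaptors. It measured 74.7, 90.0 and 155 CPM in VavCre- HSCs and 181, 257 and 168 CPM in HSC libraries labelled VavCre+, which were all higher. The log2 fold change was 0.92 (SE 0.33). In macrophages Pik3r1 measured 140.2, 149 and 157 CPM in VavCre- and 88.5, 117 and 75.9 CPM in VavCre+ libraries, which were all lower. That log2 fold change was -0.67 (SE 0.41). Insr and Pik3r1 were thus the members whose libraries separated in opposite directions in the 2 sorts.

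Akt1 (chromosome 12, 112653821 to 112674884, minus strand), the kinase, was the most abundant member. It measured 605, 506 and 554 CPM in VavCre- HSCs and 384, 355 and 465 CPM in HSC libraries labelled VavCre+, which were all lower, with a log2 fold change of -0.47 (SE 0.18). In macrophages the VavCre- libraries agreed closely, at 247, 233 and 236 CPM, while the VavCre+ ones spread over 235, 297 and 101 CPM. The groups overlapped, and the sign of this small difference (-0.18, SE 0.39) turned with scaling by library totals or size factors (0.01).

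The FoxO factors bind the same DNA element and differ in tissue and abundance. Foxo1 (chromosome 3, 52268336 to 52353221, plus strand) measured 134, 118 and 104 CPM in VavCre- HSCs and 107, 81.7 and 197 CPM in HSC libraries labelled VavCre+, so that the latter lay on both sides of the former. The log2 fold change was 0.11 (SE 0.34). In macrophages Foxo1 measured 51.96, 50.4 and 61.1 CPM in VavCre- and 209.8, 147 and 108 CPM in VavCre+ libraries. All VavCre+ libraries were higher, the lowest at 108 CPM against the highest VavCre- one at 61.1 CPM. The means were 54.5 ± 5.81 and 155 ± 51.2 CPM (SD, n = 3 each), and the log2 fold change was 1.51 (SE 0.45).

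Foxo3 (chromosome 10, 42181841 to 42276755, minus strand), the FoxO factor whose loss most affects adult mouse HSCs, was variable. It measured 8.30, 14.3 and 28.3 CPM in VavCre- HSCs and 10.6, 3.71 and 51.0 CPM in HSC libraries labelled VavCre+, a ratio of 13.8 between the highest and the lowest library. In macrophages it measured 71.3, 104 and 95.2 CPM in VavCre- and 33.8, 54.3 and 105 CPM in VavCre+ libraries. Groups overlapped in both sorts, with log2 fold changes of 0.36 (SE 0.97) and -0.49 (SE 0.54). Foxo4 (chromosome X, 101254528 to 101260873, plus strand) was close to absent from HSCs, with 34, 14 and 0 reads in VavCre- libraries and 0, 25 and 0 reads in those labelled VavCre+. In macrophages it measured 14.54, 10.3 and 21.2 CPM in VavCre- and 23.4, 2.05 and 21.6 CPM in VavCre+ libraries, again with overlap.

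**Figure D1:**
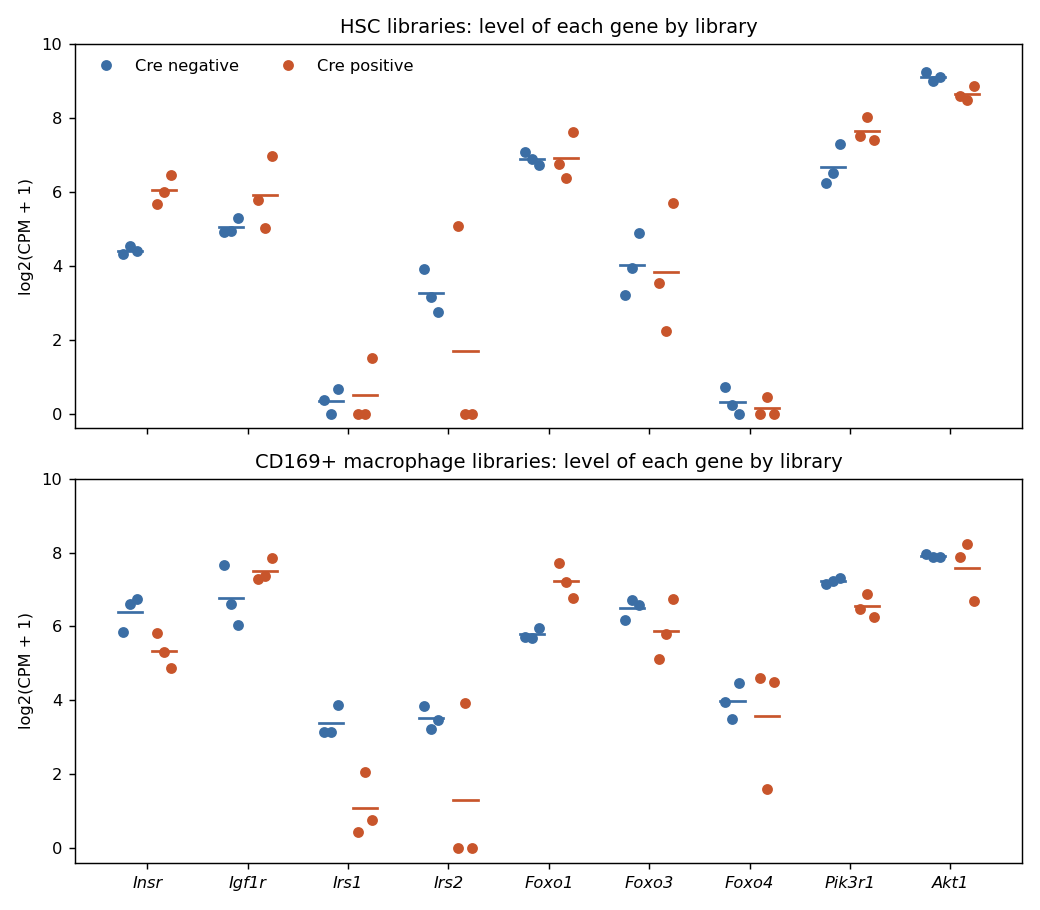
Level of each of the 9 genes as log2(CPM + 1) in the 6 HSC libraries (top) and the 6 macrophage libraries (bottom). Each point is 1 library, blue for Cre negative and orange for Cre positive, and lines are group means on that scale; Insr separates upward in HSCs (20.3 and 66.5 CPM) and Foxo1 in macrophages (54.5 and 155 CPM), while Irs2 has libraries at 0 in both.

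Counted together, 3 of 9 genes had HSC libraries without overlap between genotypes (Insr and Pik3r1 higher, Akt1 lower), where 15.7% of the 13962 genes tested had, 6.37% higher and 9.33% lower. In macrophages 4 of 9 did (Foxo1 higher, Insr, Irs1 and Pik3r1 lower), where 14.1% of the 17806 genes tested had, 2.27% higher and 11.8% lower. Without macrophage VavCre+ replicate 2 it was 7 of 9, but fewer libraries separate more readily. The share of all genes in that setting was not computed, and the 14.1% does not apply to it. Since the genes were chosen on this contrast, the counts carry no further reading. The median log2 fold change of the 9 was 0.36 in HSCs and -0.49 in macrophages, and that of all genes tested -0.005 and -0.16. The latter was 0.05 with scaling by library totals, and relative to -0.16 the macrophage differences of Foxo1, Insr and Pik3r1 were 1.67, -0.93 and -0.51. After each library was thinned to 2602934 reads, Foxo1 measured 69.9, 65.8 and 32.5 CPM in VavCre- and 229, 152 and 116 CPM in VavCre+ libraries and stayed without overlap. Insr then measured 50.3, 120.3 and 127 against 60.4, 38.5 and 32.9 CPM, and Pik3r1 122, 137 and 176 against 96.4, 132 and 85.9 CPM, so that both overlapped. The thinned draw also moved single values by itself. Irs1 in VavCre- replicate 2 went from 167 reads to 0, and Foxo1 in VavCre- replicate 3 from 61.1 to 32.5 CPM. Whether these overlaps come from depth or from the draw cannot be told apart.

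**Figure D2:**
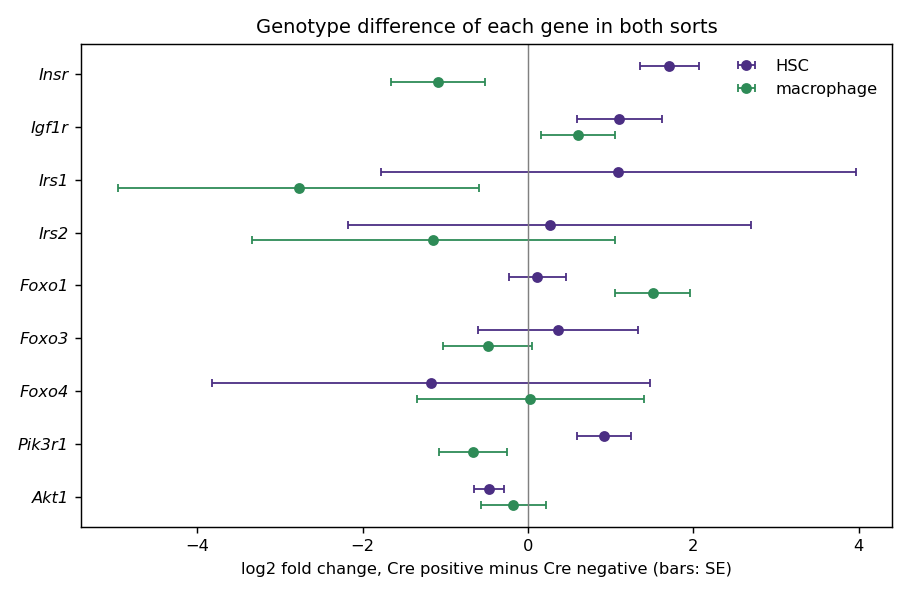
Log2 fold change of Cre positive minus Cre negative libraries for each gene in HSCs (purple) and macrophages (green), with bars of 1 standard error from the edgeR fit over all genes of each table. Insr (1.71 and -1.09) and Pik3r1 (0.92 and -0.67) lie on opposite sides of 0, and Irs1, Irs2 and Foxo4 have the widest bars in both sorts.

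The promoters are printed for the 3 members that hold a FoxO-type element in them (Akt1, Irs1 and Irs2), and for Foxo1 and Pik3r1, whose libraries separated but which hold none. Windows were available for 7 of the 9 genes, Insr and Foxo4 being the others, from RefSeq on GRCm38.p6, and the 250 bases before each annotated start were searched on both strands for TGTTTAC, a core of forkhead binding, for TTGTTTAC, which contains it, and for TTGTTTTG, the core of the insulin response sequence. Of 32851 such windows, 3.17% hold TGTTTAC, 1.07% TTGTTTAC and 2.21% TTGTTTTG. Akt1 (chr12:112674885-112675134, minus strand) holds TTGTTTAC, starting 162 bases before its upstream start. Irs1 (chr1:82291440-82291689, minus strand) and Irs2 (chr8:11008930-11009179, minus strand) both hold TTGTTTTG close to the start, 33 and 38 bases before it. Foxo1 (chr3:52268087-52268336, plus strand) and Pik3r1 (chr13:101768218-101768467, minus strand) hold none of them. Akt1 and Pik3r1 each have another window, at a start further downstream (chr12:112674277-112674526 and chr13:101692631-101692880). These windows hold none of the elements either and are not printed. The sequences run 5′ to 3′ towards the start, with the elements in capitals.
Akt1: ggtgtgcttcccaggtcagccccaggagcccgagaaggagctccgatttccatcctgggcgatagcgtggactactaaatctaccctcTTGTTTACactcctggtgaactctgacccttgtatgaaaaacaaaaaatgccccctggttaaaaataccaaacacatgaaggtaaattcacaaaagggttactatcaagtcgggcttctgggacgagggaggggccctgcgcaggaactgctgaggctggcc
Irs1: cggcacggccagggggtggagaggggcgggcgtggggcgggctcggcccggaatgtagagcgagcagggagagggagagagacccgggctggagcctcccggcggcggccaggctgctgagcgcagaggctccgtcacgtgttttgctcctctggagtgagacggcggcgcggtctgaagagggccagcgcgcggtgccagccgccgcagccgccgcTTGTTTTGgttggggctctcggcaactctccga
Irs2: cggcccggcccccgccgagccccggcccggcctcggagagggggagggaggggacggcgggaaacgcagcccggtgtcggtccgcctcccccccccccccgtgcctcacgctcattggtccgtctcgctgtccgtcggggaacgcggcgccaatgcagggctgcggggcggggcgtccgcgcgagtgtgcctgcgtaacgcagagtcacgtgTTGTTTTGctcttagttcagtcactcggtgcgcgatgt
Foxo1: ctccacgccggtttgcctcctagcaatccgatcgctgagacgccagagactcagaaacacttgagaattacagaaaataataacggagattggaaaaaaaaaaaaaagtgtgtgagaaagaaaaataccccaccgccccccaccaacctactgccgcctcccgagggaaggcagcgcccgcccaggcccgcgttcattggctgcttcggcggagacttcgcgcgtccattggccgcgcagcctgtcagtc
Pik3r1: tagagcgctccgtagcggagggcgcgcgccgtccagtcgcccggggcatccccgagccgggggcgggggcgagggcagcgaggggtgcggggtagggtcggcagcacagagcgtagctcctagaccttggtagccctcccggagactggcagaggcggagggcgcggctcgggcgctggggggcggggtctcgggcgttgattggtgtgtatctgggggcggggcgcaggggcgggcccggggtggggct
A match is a run of letters and not a bound site.

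To compare levels between genes, CPM was divided by the length of all annotated exon bases (RPKM, the CPM per kilobase), and all 36 pairs of the 9 genes were compared, ordered by their mean log2 level, over the 6 libraries of a table. Levels between genes were not part of how the genes were chosen. In HSCs Akt1 stood highest at 117 ± 23.6 RPKM (SD, n = 6), followed by Pik3r1 at 15.3 ± 6.58 and Foxo1 at 14.3 ± 4.57. These were followed by Insr (3.16 ± 2.04), Igf1r (3.04 ± 2.19), Foxo3 (2.56 ± 2.33) and Irs2 (1.59 ± 1.96), and Foxo4 (0.0560 ± 0.0741) and Irs1 (0.0486 ± 0.0775) lay near 0. Akt1 exceeded Pik3r1 in 6 of 6 libraries, by 3.02 ± 0.92 on the log2 scale, and Foxo1 exceeded Insr in 6 of 6, by 2.33 ± 0.92 (exact two-sided sign-flip permutation p = 0.03125 each, the smallest that 6 libraries allow, adjusted p = 0.0433 over 36 pairs). The other neighbours in the order did not differ beyond their spread, with the higher gene above the lower in 2 to 4 of 6 libraries: Pik3r1 and Foxo1, Insr and Igf1r, Igf1r and Foxo3, Foxo3 and Irs2, Irs2 and Foxo4, and Foxo4 and Irs1. In all, 26 of 36 pairs passed the test in HSCs. The order pools both genotypes: Igf1r was above Insr in all 3 VavCre- libraries (1.73, 1.77 and 2.29 against 1.37, 1.61 and 1.45 RPKM), unlike the pooled means.

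In macrophages Akt1 was again highest at 54.9 ± 15.9 RPKM (SD, n = 6) and exceeded Pik3r1 by 2.16 ± 0.41 on the log2 scale in 6 of 6 libraries (exact sign-flip permutation p = 0.03125, adjusted p = 0.0489 over 36 pairs). Below it Pik3r1 (12.05 ± 3.32), Foxo1 (12.1 ± 7.39), Foxo3 (10.2 ± 3.87) and Igf1r (9.01 ± 3.70) were not separated from each other by the test over both genotypes. Foxo3 exceeded Foxo1 in the 3 VavCre- libraries (9.42, 13.8 and 12.6 against 6.00, 5.81 and 7.06 RPKM), and Foxo1 exceeded Foxo3 in VavCre+ replicates 1 and 2 (24.2 and 16.97 against 4.47 and 7.17 RPKM). Insr (4.63 ± 2.27), Foxo4 (4.45 ± 2.37), Irs2 (1.22 ± 1.00) and Irs1 (0.610 ± 0.563) followed, and in this lower part too no neighbours were separated. Of 36 pairs 23 passed, all of them at the smallest possible p. With the longest transcript as the length 0 passed, since fewer pairs at that p leave none under the adjusted threshold. The tables come from different sorts and hold different numbers of genes (32285 for HSCs and 56980 for macrophages). The aligner and counter of the macrophage table are not known here. Levels are therefore set side by side without a test: Foxo4 measured 4.45 RPKM in macrophages and 0.0560 in HSCs, Foxo3 10.2 and 2.56, Irs1 0.610 and 0.0486, Akt1 54.9 and 117, and Foxo1 12.1 and 14.3.

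**Figure D3:**
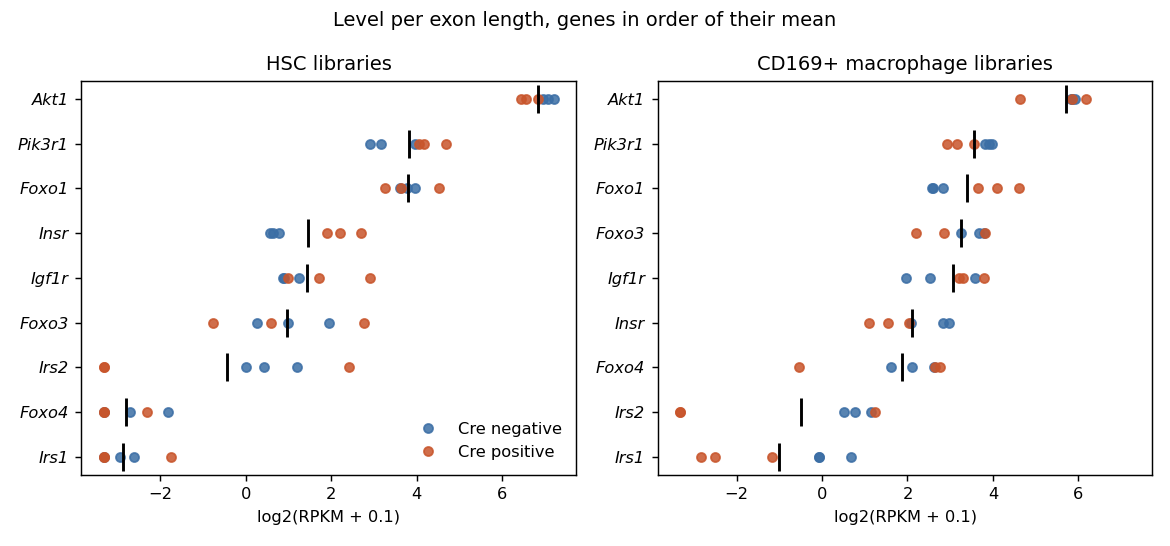
Level per exon length, as log2(RPKM + 0.1), of the 9 genes in order of their mean in HSC (left) and macrophage (right) libraries. Points are libraries (blue Cre negative, orange Cre positive) and black ticks are means over 6 libraries; Akt1 stands apart at the top in both, and Foxo4 is near the bottom in HSCs (0.0560 RPKM) and higher in macrophages (4.45 RPKM).

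Within families the make-up per length differed by library. Of the FoxO transcripts (Foxo1, Foxo3, Foxo4 and Foxo6), Foxo1 made up 71.6% to 92.3% in VavCre- HSC libraries and 77.1% to 94.1% in those labelled VavCre+. In macrophages it made up 30.5%, 25.2% and 27.4% in VavCre- libraries and 68.4%, 68.6% and 38.4% in VavCre+ ones, while Foxo3 made up 48.0% to 59.8% and 12.6% to 42.6%. Foxo3 was thus the leading FoxO transcript in all 3 VavCre- macrophage libraries and in VavCre+ replicate 3. Of the transcripts of the 3 class IA regulatory subunits, Pik3r1 made up 40.6% to 45.0% in VavCre- HSCs and 59.5% to 71.5% in libraries labelled VavCre+. Its share in macrophages overlapped, at 55.2% to 59.6% and 37.9% to 95.2%. Of the receptors (Insr, Igf1r and Insrr), Insr made up 29.3% to 47.6% in VavCre- HSCs and 46.2% to 65.3% in those labelled VavCre+, and 25.9% to 64.6% and 11.1% to 30.5% in macrophages.

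**Figure D4:**
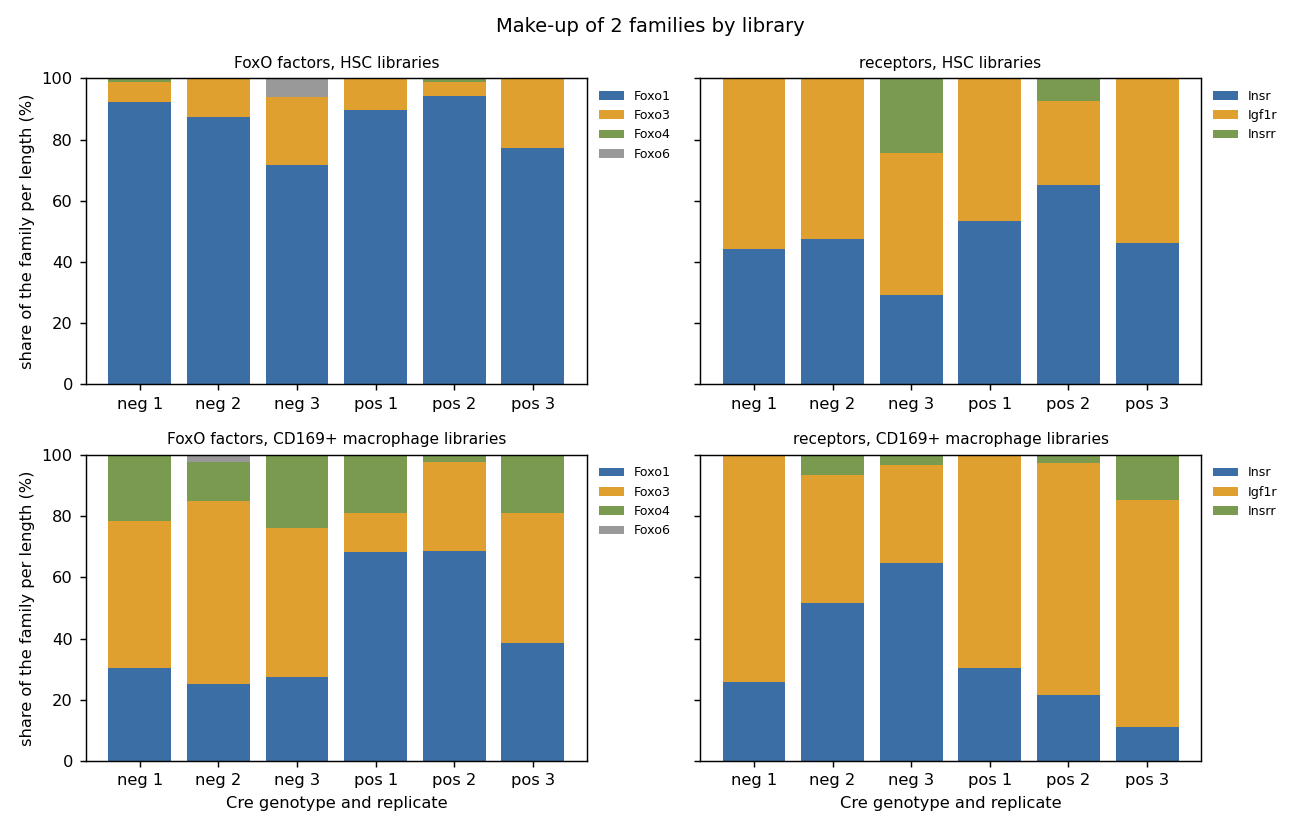
Share of each gene in the summed level per exon length of the FoxO factors (left) and of the insulin receptor family (right), for each library by Cre genotype (neg, pos) and replicate, in HSCs (top) and macrophages (bottom). Foxo1 leads in every HSC library (71.6% to 94.1%), whereas in macrophages its share is 25.2% to 30.5% in Cre negative and 38.4% to 68.6% in Cre positive libraries.

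The genes whose profile over the 6 libraries was nearest to that of Insr in HSCs, by the root mean square difference of mean-centred log2(CPM + 1) among 10850 genes, were Tiam2, Shank3 and Sh3pxd2b, at 0.12, 0.14 and 0.20, where the median gene lay at 1.02. Shank3 measured 13.8, 17.7 and 13.5 CPM in VavCre- libraries and 35.1, 37.6 and 54.3 CPM in those labelled VavCre+. Nearest to Foxo1 in macrophages, among 11400 genes, were Myo6, Nadk2 and Arsk, at 0.18, 0.22 and 0.22, with the median gene at 1.35. Myo6, which encodes myosin VI, measured 107, 86.9 and 112 CPM in VavCre- and 481, 262 and 167 CPM in VavCre+ libraries. How close a match so many genes would give without any relation was not tested.

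The other genes of the pathway were taken from 6 lists of 125 genes in all. In HSCs 109 were tested, and 0 passed the quasi-likelihood test of edgeR after Benjamini-Hochberg adjustment over all genes (smallest adjusted p = 0.689), as in the whole table, where 0.0% passed. At an unadjusted p under 0.05 stood 2 with higher and 7 with lower levels in libraries labelled VavCre+, 8.26% of those tested against 6.39% of all genes (2.42% higher, 3.97% lower). Libraries did not overlap for 17 of them (15.6% against 15.7%), 4 higher and 13 lower. DESeq2 called 1 gene, Grb14, where it called 0.953% of all genes, 0.193% higher and 0.759% lower. Grb14, an inhibitor that binds the active insulin receptor, measured 10.3, 4.85 and 2.36 CPM in VavCre- libraries and had 0 reads in the 3 labelled VavCre+. Against a floor of 3 counts per library it was at least 125-fold lower, or 77.3-fold without VavCre- replicate 1. It passed the filter on low counts through the VavCre- group alone, and edgeR did not call it.

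By role, 0 genes of any list passed edgeR's test in HSCs, and the genes with the smallest p are given as values. Among 7 tested ligands and binding proteins, the carrier Igfbp3 measured 104, 126 and 186 CPM in VavCre- libraries and 72.9, 47.4 and 73.0 CPM in those labelled VavCre+. Both Ins1 and Ins2 had 0 reads in all HSC libraries, whereas Igf2, the main fetal ligand, reached 691 ± 65.8 and 586 ± 86.3 CPM (SD, n = 3 each). Among 20 genes of the AKT and mTOR arm, Pdpk1, the kinase that activates AKT, measured 46.0, 51.3 and 31.6 CPM and then 76.7, 98.8 and 56.0 CPM, without overlap. Akt2 was lower, at 46.6, 70.7 and 64.9 and then 42.4, 41.0 and 23.2 CPM, as was the mTOR complex subunit Mlst8, at 23.4 to 30.4 and 14.2 to 15.99 CPM. Of 15 phosphoinositide 3-kinase subunits and lipid phosphatases, 0 had libraries without overlap, where 15.7% of all genes had.

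Among 19 tested FoxO regulators in HSCs, Sgk1, a kinase that phosphorylates FoxO factors, measured 439, 357 and 276 CPM in VavCre- libraries and 272, 214 and 243 CPM in those labelled VavCre+. The acetyltransferase Ep300 measured 33.2 to 34.9 and 41.9 to 62.3 CPM, and the deubiquitinase Usp7 67.3 to 75.6 and 81.8 to 120.3 CPM. Among 31 tested FoxO target genes, 6 had libraries without overlap and all 6 were lower, 19.4% of the list where 15.7% of all genes had no overlap and 9.33% were lower. The autophagy gene Atg14 measured 29.1, 25.4 and 19.3 CPM and then 3.99, 9.62 and 5.50 CPM. Txnip, a thioredoxin inhibitor, measured 480, 393 and 358 and then 312, 243 and 314 CPM, and the catalase gene Cat 266, 270.4 and 406 and then 222, 206 and 95.7 CPM. The median log2 fold change of the targets was -0.12, near that of all genes at -0.005.

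In macrophages 117 of the 125 genes were tested, and 0 passed edgeR's test (smallest adjusted p = 0.773; 0.0% of all genes passed). At an unadjusted p under 0.05 stood 0 with higher and 6 with lower levels, 5.13% against 5.42% of all genes (0.511% higher, 4.91% lower), and 12 of the 117 (10.3% against 14.1%) had libraries without overlap, all 12 lower in VavCre+ libraries. DESeq2 called 0 of them and 0.343% of all genes, 0.0562% higher and 0.286% lower. Among 35 tested FoxO targets Cat measured 170, 152 and 110.4 CPM in VavCre- and 59.4, 39.2 and 55.2 CPM in VavCre+ libraries. Gadd45a, a growth arrest gene, measured 6.89, 6.54 and 19.6 CPM and had 0 reads in the VavCre+ libraries, at least 15.3-fold lower, or 9.33-fold without VavCre- replicate 3. The binding protein gene Igfbp1 likewise measured 26.1, 1.82 and 6.09 CPM and then 0 reads, at least 15.8-fold lower. Without VavCre- replicate 1, the library with the most hepatoblast transcripts, the bound for Igfbp1 was 5.49-fold, and the part of those cells in the result was not tested. The shallower VavCre+ libraries set these bounds. Gadd45a and Igfbp1 passed the filter on low counts through the VavCre- group alone, so that they could only come out lower. Both are among the 12 without overlap.

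Of the other macrophage lists, Igfbp3 measured 50.1, 21.1 and 23.1 CPM in VavCre- and 2.16, 11.0 and 19.0 CPM in VavCre+ libraries. Cat and Igfbp3 were the 2 pathway genes without overlap in both sorts, lower in VavCre+ libraries each time. They are 1.83% of the 109 pathway genes tested in both, and of all 12280 genes tested in both 1.17% did the same. The stellate and mesenchymal markers, also lower in VavCre+ macrophages, are given above, and their part in this was not tested. The lipid phosphatase Inpp4a measured 29.8, 69.8 and 71.7 and then 16.6, 7.07 and 25.6 CPM, and Akt1s1, an inhibitor within mTOR complex 1, 32.7, 55.8 and 65.8 and then 22.0, 15.4 and 0.696 CPM. The FoxO-associated protein gene Set measured 377 to 492 and 249 to 332 CPM. Igf1, which macrophages secrete, overlapped at 58.1, 174 and 205 CPM in VavCre- and 41.0, 44.6 and 213 CPM in VavCre+ libraries. In the other direction lay Pik3r5, a regulatory subunit of the class IB kinase, at 6.43, 15.9 and 23.9 and then 23.4, 28.6 and 103.7 CPM, and Tsc2, an inhibitor of mTOR complex 1, at 114, 74.4 and 68.7 and then 113, 116 and 224 CPM, both with overlap. List medians of the log2 fold change were -0.48 for adaptors, -0.44 for FoxO targets, -0.30 for kinase subunits and phosphatases, -0.19 for ligands, -0.14 for FoxO regulators and -0.02 for the AKT and mTOR arm. The median of all 117 was -0.19, and that of all genes -0.16.

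**Figure D5:**
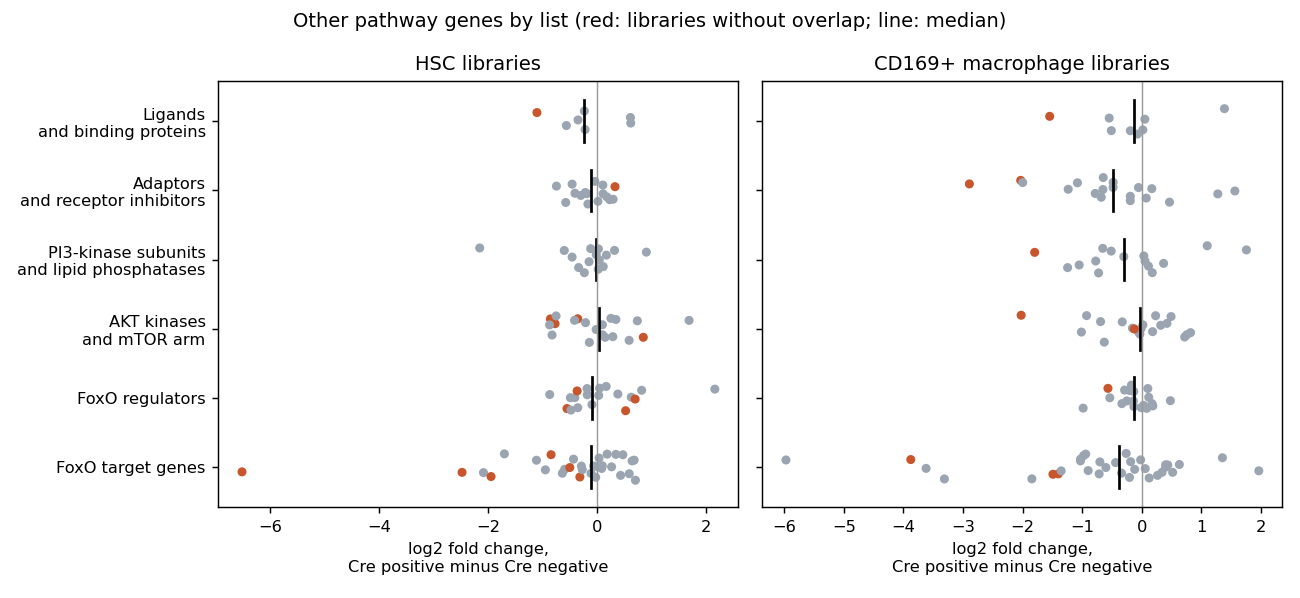
Log2 fold change of Cre positive minus Cre negative libraries for the tested genes of 6 pathway lists in HSCs (left) and macrophages (right), leaving out genes at 0 in a whole group. Red points are genes whose libraries did not overlap, grey points those that did, and black lines are medians of the genes plotted; 0 genes passed edgeR's test in either sort.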

How the data were processed

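RNA was measured in 12 libraries, 6 per sort, made with a SMART-Seq v4 kit and so without strand information, per the labels' protocols. Each sort has 1 deposited table, with unnormalized read counts by gene. For HSCs the submitters' processing notes list STAR 2.7.6a, featureCounts, Subread 2.0.1 and the mm10 build (GRCm38). For macrophages the notes name mm10 alone, with the aligner and counter not given in the sources used here. Per-sample columns left without a sample numbered 0.

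Names, positions and exon lengths came from GENCODE M21 (GRCm38). Each table was fitted alone with edgeR 4.0.16 in R 4.3.3 (filterByExpr, TMM, robust glmQLFit, glmQLFTest for Cre positive over Cre negative, Benjamini-Hochberg adjusted p under 0.05). This kept 13962 and 17806 genes. Standard errors were derived from the fold change and the F statistic. The fit was also run on simulated data, and no reading of the results with 0 genes called is drawn from that run. DESeq2 1.42.0, other scalings, no filter, thinning, a replicate block and leaving out each library were alternatives. RPKM pairs used a pseudocount of 0.1. Floors and the bounds built on them cover counting error only, while the standard errors also hold the spread between libraries.

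The members and lists were chosen with earlier results of these data known. Genes named beyond the members are those of a list with the smallest p among those reaching 5 CPM on average in 1 genotype, up to 3 per list, the 3 nearest profiles, and cell type markers. Ins1, Ins2, Igf2, the families and the macrophage markers Mrc1, Adgre1, C1qb, Cd68 and Mertk were chosen after their values were seen. Libraries of a group differed by at least 51.2 in chi-square per degree of freedom, so each was counted as 1 sample, although amplified reads are not independent and separate amplifications of 1 sample could differ as much. In macrophages, annotated genes overlap the spans of Insr, Foxo1 and Pik3r1, with up to 110, 316 and 96 reads in a library, and could share reads with them.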

Additional observations from a re-analysis of the deposited data

Results flagged for a closer look

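Insr and Pik3r1 were picked out because every library labelled Cre positive lay above every Cre negative one in HSCs while every Cre positive library lay below in macrophages. The log2 fold changes were 1.71 and -1.09 for Insr and 0.92 and -0.67 for Pik3r1, HSCs before macrophages. The difference between the sorts was not tested. For Insr the macrophage libraries came within 2 CPM of each other, and for both genes they overlapped after thinning to equal depth. That draw also moved single values by itself, so depth and draw cannot be told apart there. No test for outlying libraries was run, since groups had 3 libraries.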

How the results depend on the processing

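Insr in HSCs ranged from 1.47 to 1.88 on the log2 scale and Foxo1 in macrophages from 1.17 to 1.71 over 13 alternatives each. Over the 9 genes the sign was that of the reported value in 108 of 116 cases in HSCs and 106 of 116 in macrophages. The exceptions were Irs1, Irs2, Foxo1, Foxo3 and Foxo4 in HSCs and Foxo4 and Akt1 in macrophages, all with overlapping libraries. Pathway genes called numbered 0 under the other settings, 1 with DESeq2 in HSCs (Grb14) and 1 without a filter in macrophages (Pck1), and 0 with each library left out. Members without overlap numbered 3 to 4 in HSCs and 4 to 7 in macrophages when 1 library was left out, the 7 without Cre positive replicate 2, and 1 in macrophages after thinning. The share of all genes was not computed for these settings, so the counts are not set against a background. Fewer libraries separate more readily, and the thinned draw moved single values by itself. Pairs past the test stayed at 26 in HSCs, and in macrophages 23 became 0 with the longest transcript as the length, which also put 3 pairs in the other order. With 1 library left out, 0 to 4 pairs in HSCs and 0 to 2 in macrophages changed order, and 5 libraries allow no p under the threshold.

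Over all genes tested, deviations of same-numbered libraries correlated at -0.03 to 0.01 in HSCs and -0.02 to 0.03 in macrophages. A correlation over all genes cannot show whether a smaller set was shared by replicate number. In macrophages Cd68 was low in replicate 1 of both genotypes, at 5.68 and 4.68 CPM, and whether this reflects pairing was not tested. With the replicate block 0 pathway genes passed in either sort, and Insr in HSCs was 1.68 and Foxo1 in macrophages 1.46. Depth limits Irs1 in Cre positive macrophage replicate 1, where it measured 0.360 CPM and 3 counts are worth 1.08 CPM. The bounds on Grb14, Gadd45a and Igfbp1 without each Cre negative library, chosen after seeing the data, ran over 77.3 to 162, 9.33 to 18.4 and 5.49 to 22.4.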
